A study of Mus musculus with 4 samples.

Results

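Open chromatin found in macrophages without the creatine transporter, under both culture conditions, and in neither wild-type library is described here. Bone marrow-derived macrophages of C57BL/6 mice were either wild-type (WT) or Slc6a8-/y (KO), that is, males that lack Slc6a8 on their single X chromosome. Cells of each genotype were left untreated or received IL-4 at 10 ng/mL for 6 hours, after 5 days of growth in 10% M-CSF, and 50000 cells went into each ATAC-seq library. Each of the 4 groups held 1 library, so no value below has a replicate error within its group and no test was run. Intervals are exact Clopper-Pearson 95% intervals that cover counting error alone. The peaks of the 4 deposited lists that overlapped by at least 1 bp were merged into 20540 regions. A region was kept when it held a peak of KO untreated and of KO IL-4 and none of WT untreated or WT IL-4. This left 249 regions, 1.21% of all merged regions, called KO-only regions below. They were chosen by the measured presence and absence of peaks, so their number and their scores are a description. The mirror set, peaks in both WT libraries and no KO library, held 550 regions or 2.68%. The order of the genotypes turns when each list is cut to its 9930 highest scores, which gives 373 KO-only and 349 WT-only regions. Of these 373, 278 overlap a WT peak that the shorter lists leave out. The cut shortens the WT untreated list most, from 17339 peaks, and leaves the WT IL-4 list whole. No like count is given for the 349 WT-only regions.

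In ATAC-seq the transposase Tn5 cuts DNA that is not wrapped tightly in nucleosomes, and a peak is a stretch with many cuts. Promoters, where transcription starts, are open in most cells, while distal elements such as enhancers are open in fewer cell types. Slc6a8 carries creatine into the cell, where creatine kinases use it to buffer ATP. IL-4 drives macrophages into alternative activation through the transcription factor STAT6.

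The promoters that carry the clearest form of the pattern are shown first. They belong to the 6 highest-ranked KO-only regions that hold the start site of a protein-coding gene with no WT peak within its span or 10 kb on either side. The order of rank is that of the lower of a region's 2 score percentiles, each within its own KO list. Each line gives the 250 bases upstream of the start site, 5′ to 3′ on the gene's strand, from RefSeq (GRCm38.p6, the assembly that mm10 names). Capitals mark GC boxes (GGGCGG), ETS motifs (CCGGAAG) and CCAAT boxes on either strand. All 6 genes lie on the minus strand.
Mau2: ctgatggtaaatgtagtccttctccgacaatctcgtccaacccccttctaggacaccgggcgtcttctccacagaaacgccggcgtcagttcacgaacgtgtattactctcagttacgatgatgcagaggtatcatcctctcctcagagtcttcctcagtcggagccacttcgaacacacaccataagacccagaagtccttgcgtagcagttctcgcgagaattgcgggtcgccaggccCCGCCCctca
Mdp1: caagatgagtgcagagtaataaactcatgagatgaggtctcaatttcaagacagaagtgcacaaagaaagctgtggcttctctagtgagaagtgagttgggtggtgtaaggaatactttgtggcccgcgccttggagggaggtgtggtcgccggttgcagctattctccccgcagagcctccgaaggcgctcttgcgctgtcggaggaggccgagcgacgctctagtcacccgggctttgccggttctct
Nupr1: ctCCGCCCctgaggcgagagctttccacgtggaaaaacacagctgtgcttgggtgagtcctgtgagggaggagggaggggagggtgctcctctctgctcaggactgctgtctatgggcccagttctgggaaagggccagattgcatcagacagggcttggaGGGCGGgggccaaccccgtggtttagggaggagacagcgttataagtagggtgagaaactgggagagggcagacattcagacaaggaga
Zfp688: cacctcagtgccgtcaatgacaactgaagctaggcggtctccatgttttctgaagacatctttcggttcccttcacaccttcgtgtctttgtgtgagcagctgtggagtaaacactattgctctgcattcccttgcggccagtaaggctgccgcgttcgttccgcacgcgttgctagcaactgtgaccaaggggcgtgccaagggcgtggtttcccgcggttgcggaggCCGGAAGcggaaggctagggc
Dmac1: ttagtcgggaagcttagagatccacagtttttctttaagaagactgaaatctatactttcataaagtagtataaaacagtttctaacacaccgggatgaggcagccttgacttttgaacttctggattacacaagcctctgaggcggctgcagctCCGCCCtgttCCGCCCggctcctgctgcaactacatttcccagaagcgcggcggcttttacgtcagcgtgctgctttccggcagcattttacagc
Zfp689: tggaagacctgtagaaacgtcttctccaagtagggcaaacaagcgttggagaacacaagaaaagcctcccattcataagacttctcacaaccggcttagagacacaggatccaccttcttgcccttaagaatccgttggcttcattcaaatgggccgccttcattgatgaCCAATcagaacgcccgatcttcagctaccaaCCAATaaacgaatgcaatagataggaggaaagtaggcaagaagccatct
Their coordinates are chr8:70042735-70042984, chr14:55660452-55660701, chr7:126625471-126625720, chr7:127422035-127422284, chr4:75278293-75278542 and chr7:127449159-127449408 in that order. Mau2 encodes a loader of cohesin onto DNA, and Mdp1 a phosphatase. Nupr1 encodes a small nuclear protein induced by stress, Dmac1 an assembly factor of respiratory complex I, and Zfp688 and Zfp689 zinc-finger proteins. GC boxes stand in the windows of Mau2 (1), Nupr1 (2) and Dmac1 (2). An ETS motif stands in that of Zfp688 and a pair of CCAAT boxes in that of Zfp689, while Mdp1 has none of the 3 motifs.

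The untreated lists held 17339 (WT) and 13714 (KO) peaks, and the IL-4 lists 9930 (WT) and 10443 (KO). The depth of sequencing behind them is unknown. Slc6a8 itself gave no check of the genotype, since no list had a peak at its locus (chromosome X, 73673133 to 73682502). Of 10 macrophage marker loci, 10, 8, 8 and 6 held a peak in untreated WT, IL-4 WT, untreated KO and IL-4 KO cells. Of 4 T cell marker loci 3, 3, 3 and 2 did, of 4 dendritic cell loci 3, 2, 3 and 4, and of 6 neutrophil loci 2, 0, 1 and 1. Of 4 B cell loci 2, 1, 1 and 1 held one, and of 4 erythroid loci 1 in each library. Cd3e, Pax5, Mpo, Elane, Ly6g, the globin genes Hba-a1 and Hbb-bs, and the mast cell and fibroblast loci held no peak in any list. A locus peak shows open DNA near a gene and not its expression, and the part of other cell types in the KO-only regions was not tested.

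KO-only regions were regions of low score. The score is the authors' value for each peak, with a floor near 50, and ranks peaks only within a list. In untreated KO cells the 249 regions scored 50.02 to 138 with a median of 65.7, while the median of that list was 94.3. With IL-4 they scored 50.08 to 181 with a median of 60.1, against 86.1 for the list. Only 2 regions (0.803%, 0.0974 to 2.87) scored 100 or more in both lists, 25 did in the untreated list and 7 in the IL-4 list. Score pairs below are those of the KO libraries, untreated first and IL-4 second. The lower percentile had a median of 12.8 and was under 25 in 197 regions. Each region held exactly 1 peak of each KO list, and in 231 the overlap was at least 50% of both peaks. The smallest overlap was 11 bp. Region width had a median of 522 bp, against 546 bp over all merged regions.

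**Figure D1:**
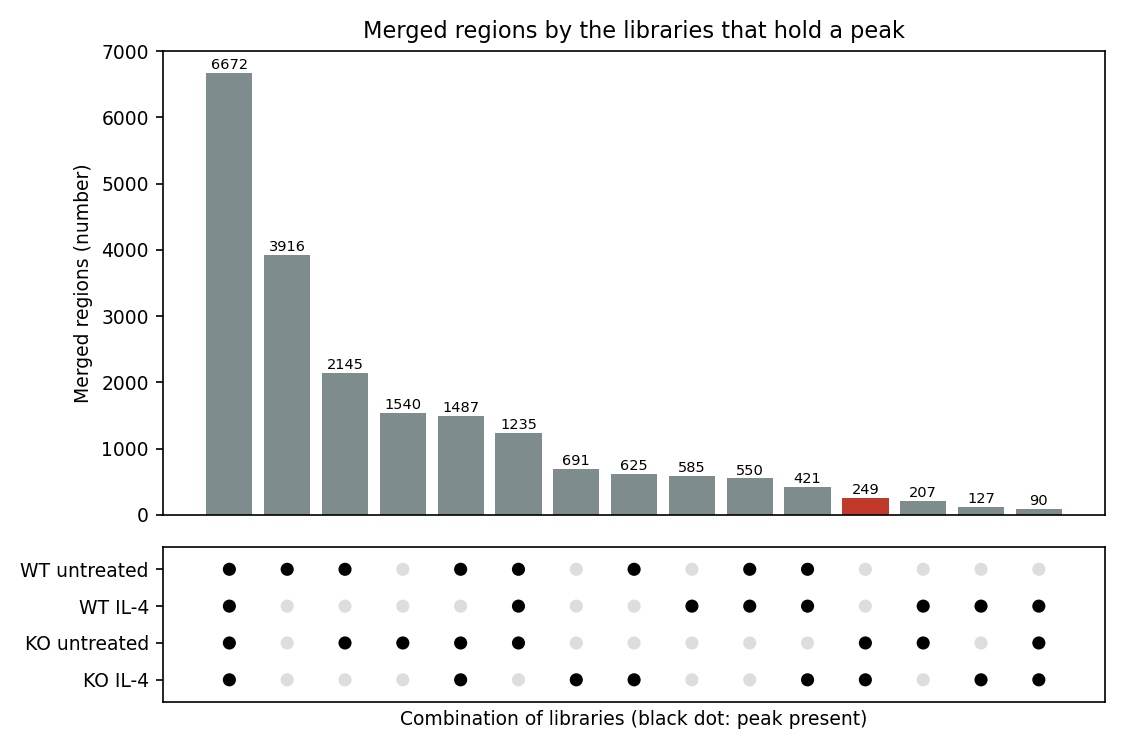
Number of merged regions (vertical axis) for each of the 15 combinations of libraries that hold a peak, shown by black dots under the bars. The red bar is the 249 regions with peaks in both KO libraries only; the matching WT bar is 550 and the bar of all 4 libraries is 6672.

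**Figure D2:**
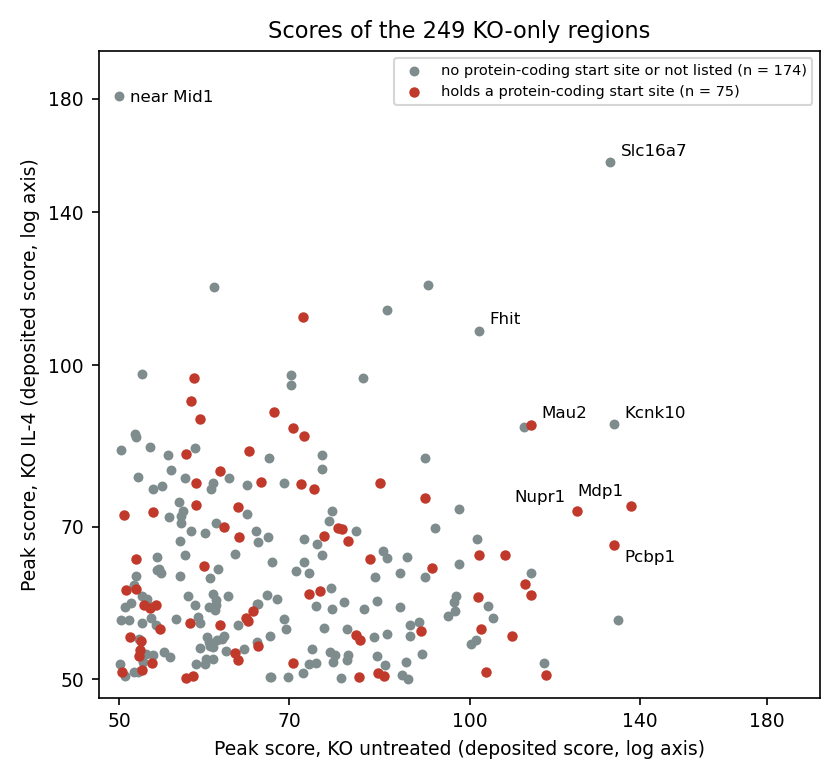
Deposited peak score in KO untreated (horizontal) against KO IL-4 (vertical), both on log axes, for the 249 KO-only regions. Most points lie near the floor of 50 on both axes; Slc16a7 and Fhit are the regions above 100 on both.

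The highest-ranked KO-only region lay at Slc16a7, which encodes a monocarboxylate transporter for lactate and pyruvate. It covered chr10:125388754-125389954 (mm10) and reached over the gene's upper end at 125389586. Its KO untreated peak scored 132 (percentile 68.2) and its KO IL-4 peak 157 (percentile 82.8). WT untreated had a peak of score 53.5 at 125389955 to 125390390, which begins at the next base, so 0 bases lie between them. The region counts as KO-only because touching is not overlap, and with touching peaks joined 248 regions remain and this one is not among them. WT IL-4 had no peak there, and its nearest one scored 135 at 125369907 to 125370628. There all 4 libraries had overlapping peaks, with untreated scores of 200.4 (WT) and 189.9 (KO) and a KO IL-4 score of 167.

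The next regions in rank had no WT peak that near. Inside Fhit, a gene for a dinucleotide hydrolase, chr14:10430481-10431131 scored 102 untreated and 108 with IL-4, and the nearest WT peak was 21895 bases away. It lay 730930 bp from the nearest gene end. Near Kcnk10, a potassium channel gene, chr12:98375231-98375899 scored 133 and 87.8, lay 53533 bp outside the gene and 63153 bases from a WT peak. At the shared promoter of Mau2 and Sugp1, a gene for a splicing-related protein, chr8:70042502-70043213 scored 113 and 87.7. The start sites of these genes lie 53 bp apart on opposite strands, and the nearest WT peak was 40610 bases away. With Slc16a7 and the region at Mid1, these were the 5 regions in the upper 50% of both KO lists.

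A pair of KO-only regions lay beside Mid1, a ubiquitin ligase gene whose copy in C57BL/6 spans the pseudoautosomal boundary of the X chromosome. The first, chrX:169990975-169991781, scored 111 untreated and 87.3 with IL-4. The second, chrX:169992167-169998607, was the widest of all at 6441 bp and the last in rank. Its KO untreated peak of 6356 bp scored 50.02, while its KO IL-4 peak of 960 bp scored 181. The nearest WT peaks were of the untreated list, 9608 bases from the first and 9793 from the second.

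**Figure D3:**
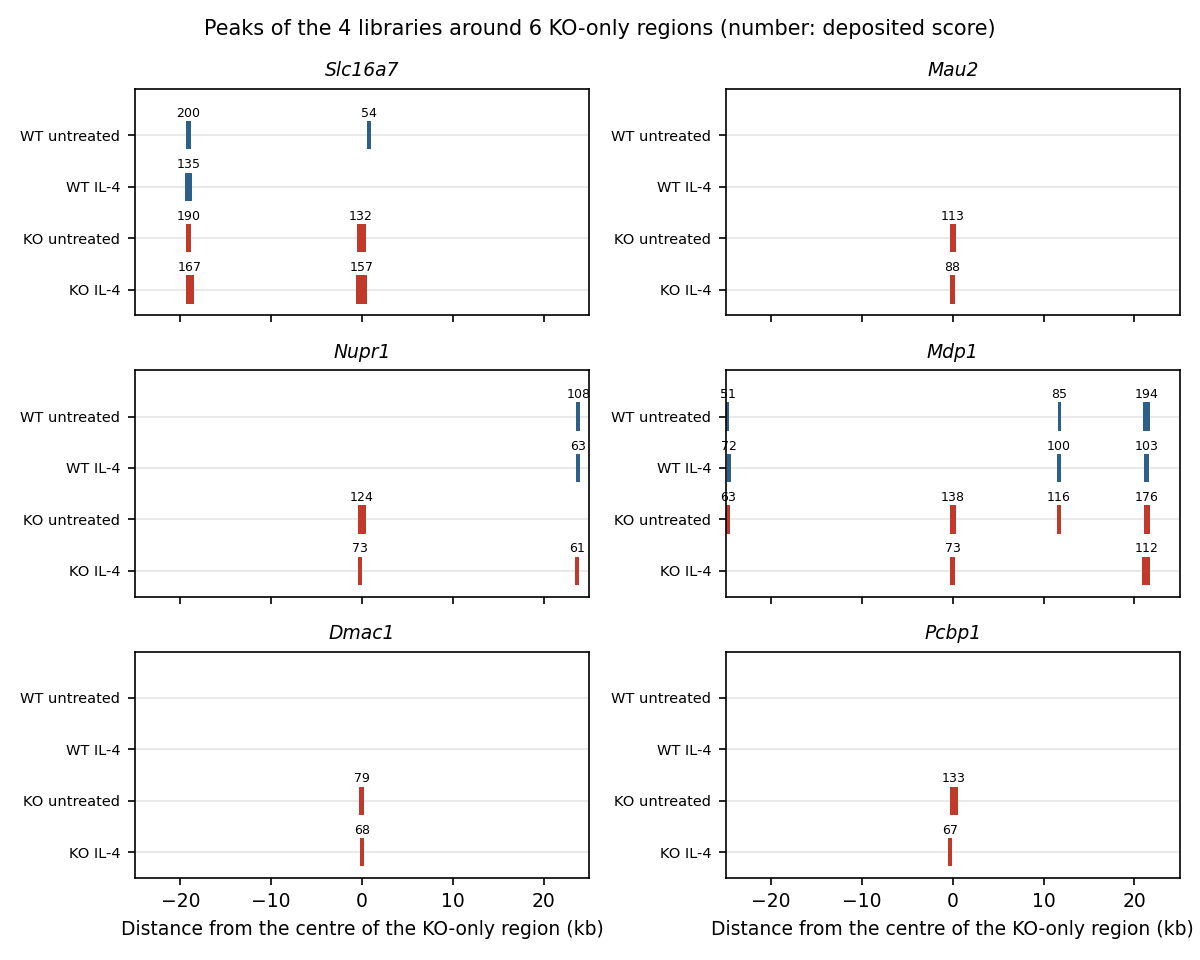
Peaks of the 4 libraries within 25 kb of the centre of 6 KO-only regions, as bars at their distance in kb with the deposited score above each. At the centre both KO rows hold a bar and the WT rows hold none, except that the WT untreated peak at Slc16a7 touches the region from the right.

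Start sites of protein-coding genes lay in 75 KO-only regions, of the 246 on chromosomes with listed start sites. They belong to 77 genes, since Mau2 with Sugp1 and Vmp1 with Ptrh2 share a region. No WT list had any peak at the locus of 32 of these 77 genes (41.6%, 30.4 to 53.4). In the mirror set, start-site genes of regions found in both WT libraries only, 69 of 128 (53.9%, 44.9 to 62.8) had no KO peak at the locus. Of the protein-coding start sites under a region with both KO peaks, 83 of 5377 (1.54%) had no WT peak in the region. With the genotypes exchanged it was 138 of 5371 (2.57%). The lists were of unequal length.

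Start sites at the 30 highest-ranked edge regions are described gene by gene, in an order that carries no test of a function. At Dmac1 the region scored 78.6 untreated and 67.9 with IL-4, and the nearest WT peak was 1025844 bases away, the largest distance of all 249. The region at Mdp1 scored 138 and 73.3 and that at Nupr1 124 and 72.5, while Zfp688 had 77.0 and 69.7 and Zfp689 70.55 and 86.98. Mrpl11, of the mitochondrial ribosome, scored 66.2 and 77.3. At Alas1, the first enzyme of haem synthesis, the scores were 107 and 65.7, and 1 peak of each WT list lay elsewhere in the locus. Adck2, a kinase-like gene of coenzyme Q metabolism, scored 91.6 and 74.5, with 1 peak of each WT list at the locus too. Ptrh2, a mitochondrial peptidyl-tRNA hydrolase, shares its region with Vmp1, which acts in autophagosome formation. That region scored 102 and 65.7, and its start sites lie 238 bp apart. WT peaks also lay at the loci of Vmp1 and, among the genes named below, of Leo1, Jmjd1c, Dock10, Hexa, Tmem231, Stxbp2, Snx18, Mr1, Trim9 and R3hdm2. The nearest one was 4946 bases from the region at Leo1, 6195 from that at Tmem231 and 7361 from that at Mr1.

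The region at Pcbp1, a poly(C)-binding protein, was 1153 bp wide and scored 133 untreated and 67.2 with IL-4, with no WT peak at the locus. Leo1, a subunit of the PAF1 elongation complex, scored 71.7 and 76.9. Slf1, a DNA repair factor, scored 112 and 61.7, with its nearest WT peak 302799 bases away. Atxn1l, a partner of the repressor Capicua, scored 63.3 and 68.5. Rbm33, an RNA-binding protein gene, scored 102 and 59.95, with 217058 bases to a WT peak. Jmjd1c, of the JmjC histone demethylase family, had its KO-only region (83.8 and 77.1) at a start site inside the gene. A KO-only region lay over an internal start site of Dock10 as well, a gene of a guanine nucleotide exchange factor. It scored 73.6 and 76.1, but a WT untreated peak of 59.2 lay 227 bases away.

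At Hexa, which encodes the alpha subunit of lysosomal hexosaminidase, the region scored 72.1 untreated and 85.5 with IL-4. WT untreated had a peak of 98.7 at 1149 bases from it. Tmem231, of the ciliary transition zone, scored 71.9 and 111, the highest KO IL-4 score of any region with a start site. Stxbp2, which acts in granule exocytosis, scored 61.5 and 69.99, and Snx18, a sorting nexin, 64.7 and 82.7. Mr1, which presents vitamin B metabolites to T cells, scored 72.8 and 60.3. Enpp4 (68.0 and 90.1), Trim9 (77.6 and 69.6), R3hdm2 (92.9 and 64.0) and Smim11 (63.2 and 73.1) complete the start sites among the 30 highest-ranked edge regions. Without a listed start site, regions at gene edges lay at Cops5, the catalytic subunit of the COP9 signalosome (76.2 and 72.5), Lrrc29 (97.9 and 72.8), Elac1, a tRNA-processing enzyme (88.3 and 65.5), and Il10rb, a subunit of the IL-10 receptor (65.5 and 69.3). A WT untreated peak of 161 lay 1079 bases from the Cops5 region.

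The remaining regions among the 20 highest in rank lay inside genes or far from them. Those inside genes were at Usp43, a deubiquitinase gene (81.1 untreated and 97.1 with IL-4), Ank2, which encodes an ankyrin (74.7 and 79.6), and Serpinb1c, a serpin gene (85.0 and 113). Slc6a9, the glycine transporter gene of the family to which Slc6a8 belongs, had a region 1110 bp from its nearest end that scored 75.7 and 70.8, 54874 bases from a WT peak. Gm4847 had one inside its span as well (93.4 and 69.8). Outside genes, a region 66240 bp from Btg1, an antiproliferative gene, scored 91.6 and 81.5, one 66086 bp from Rnf138rt1 92.1 and 119, and one 20811 bp from Olfr726 74.7 and 81.9. For Olfr726 a WT untreated peak lay 1312 bases away.

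A KO-only region marked the start site of F630028O10Rik on chromosome X, a long non-coding RNA gene, 2800 bp before the hairpin of Mir223, a microRNA of myeloid cells. It covered chrX:96239636-96240017 and scored 83.3 untreated and 52.6 with IL-4, with 94342 bases to the nearest WT peak. It was picked out after the values were seen. Other hairpins lay nearer to a KO-only region, among them those of Mir7688 (286 bp) and Mir6347 (1030 bp). The mature sequences of the Mir223 hairpin, from RefSeq on the plus strand, are given with the seed (bases 2 to 8) in capitals.
mmu-miR-223-5p: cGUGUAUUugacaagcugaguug
mmu-miR-223-3p: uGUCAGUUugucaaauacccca
Of the 246 regions, 7 (2.85%, 1.15 to 5.77) held a start site of a long non-coding RNA and none of a protein-coding gene. The share was 1.91% over all merged regions and 2.43% in WT-only regions, both inside that interval.

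The gene lists were touched by few KO-only regions. Of 260 genes in 13 lists, 9 (3.46%) had one within the span or 10 kb of it, against 1.26% of the 21900 protein-coding genes. Among genes with a peak of any library at the locus the shares were 9 of 233 (3.86%) and 277 of 13042 (2.12%). No list held more than 2 such genes. For lipid handling and nuclear receptors these were 2 of 20, Nr1h3, which encodes the oxysterol receptor LXR alpha (59.8 untreated and 58.6 with IL-4), and Lpl, lipoprotein lipase (60.2 and 60.4). For the IL-4 response it was Myc (81.1 and 58.3), 1 of 25, and for the IL-4 receptor and STAT6 list Socs3, a feedback inhibitor of cytokine signalling (60.2 and 52.2), 1 of 15. Slc7a1, an arginine transporter, was 1 of 16 in the creatine and arginine list (53.8 and 56.4). All these loci also held WT peaks, counted here as untreated first and IL-4 second. Nr1h3 had 3 and 2, Lpl 1 and 0, and Myc 2 and 0. Socs3 had 2 and 1, and Slc7a1 1 and 1. The regions at Myc, Socs3 and Lpl lay outside the genes, by 1593, 5592 and 7547 bp.

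Macrophage identity gave Cd68, 1 of 26, with a region over its start site (65.8 untreated and 53.8 with IL-4). Both WT lists had other peaks at the Cd68 locus, 3 untreated and 2 with IL-4. MHC class II gave Ctss, the protease cathepsin S, 1 of 13 (56.7 and 72.4), a locus with 0 WT peaks. Energy sensing gave Prkaa1, a catalytic subunit of AMP-activated kinase, 1 of 23 (76.3 and 51.9), also with 0 WT peaks at the locus. That region lay inside the gene Ttc33, 6116 bp outside Prkaa1. Slc16a7 was 1 of 17 in the carrier list. The lists of interferon response (27 genes), inflammation and NF-kB (23), AP-1 and immediate early genes (17), SWI/SNF subunits (18) and housekeeping genes (20) had none. Apart from Slc16a7, the list genes lay at ranks 90 to 202.

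By position, the share of KO-only regions with a start site stood between those of regions found in 1 KO library alone and of regions found in all 4. KO-only regions held a protein-coding start site in 30.5% (24.8 to 36.7), against 14.4% (12.7 to 16.3) of regions of the untreated KO list alone and 10.5% (8.32 to 13.1) of the IL-4 KO list alone. The share was 56.9% (55.7 to 58.1) in regions of all 4 libraries, 33.2% (32.5 to 33.8) over all regions and 21.5% (18.1 to 25.3) in regions found in both WT libraries only. Wider regions can hold a start site more easily. The median width was 390 bp in the untreated KO list alone, 388 bp in the IL-4 KO list alone, 522 bp in KO-only regions and 763 bp in all 4. The part of width in these shares was not tested. Gene edges, within 1 kb of either end of a protein-coding span, took 84 KO-only regions (33.7%, 27.9 to 40.0). They took 40.7% of all merged regions and 28% (24.3 to 32.0) of the WT-only ones. Another 85 KO-only regions (34.1%, 28.3 to 40.4) lay inside a span over 1 kb from its ends, against 32.2% of all merged regions. Outside spans and over 10 kb from any end lay 53 (21.3%, 16.4 to 26.9), against 19.0% of all merged regions. In all, 101 (40.6%, 34.4 to 46.9) were over 10 kb from a gene end. This was near the 39.1% of all merged regions, while the share of WT-only regions was 50.7% (46.5 to 54.98).

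The share of regions without a WT peak fell as the score rose. Among the 8498 regions with peaks in both KO lists, 2.93% had no WT peak, and the share was 12.3% (10.1 to 14.7) where the lower percentile was under 10. It was 8.08% (6.60 to 9.77) from 10 to 25, 2.25% (1.66 to 2.98) from 25 to 50 and 0.225% (0.0731 to 0.524) from 50 to 75. Above 75 it was 0 of 2174, with an upper bound of 0.170%. The 8878 regions with peaks in both WT lists showed a like fall, with 6.2% lacking a KO peak and 22.7% (19.99 to 25.7) of those under percentile 10. Under percentile 10, start sites lay in 28.6% (19.9 to 38.6) of KO-only regions, 31.7% (26.9 to 36.9) of regions that also had 1 WT list and 36.7% (31.5 to 42.0) of those with both. These intervals overlap. From 10 to 25 the share of KO-only regions with a start site was 26.8% (18.3 to 36.8), and from 25 to 50 it was 43.5% (28.9 to 58.9), with no steady change over the classes.

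**Figure D4:**
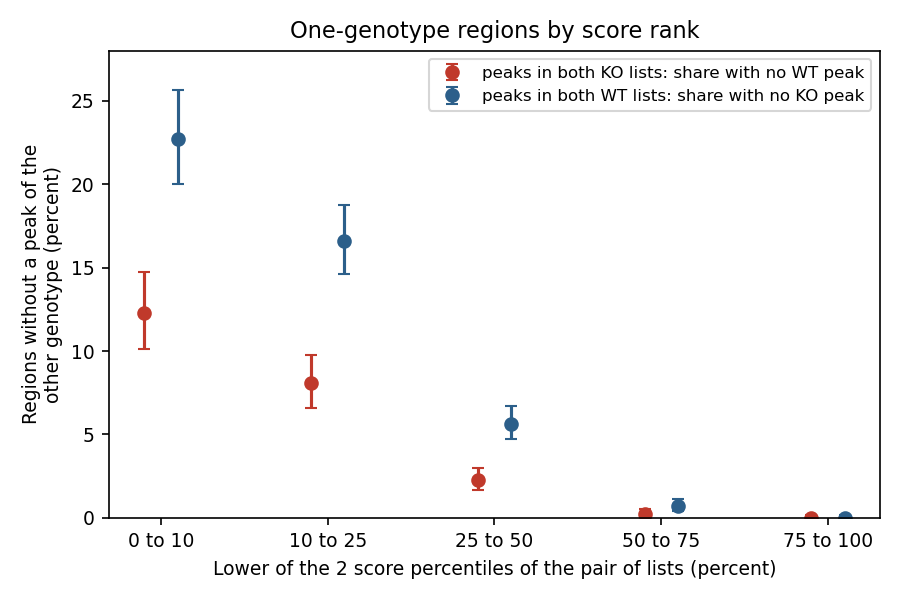
Share of regions without a peak of the other genotype (vertical, percent) by the lower of the 2 score percentiles (horizontal), with exact 95% intervals, for pairs of KO lists (red) and of WT lists (blue). Both shares fall from the lowest rank class, 12.3% and 22.7%, to 0 in the highest.

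Promoter composition of the KO-only start sites was near that of other open promoters of like rank in GC and CpG content. Over the 250 upstream bases the median GC content was 59.2% at 83 KO-only start sites, 59.6% at 715 start sites of regions with both KO peaks, a WT peak and a lower percentile under 25, and 51.2% at 13248 start sites with no region. The ratio of observed to expected CpG was 0.758, 0.769 and 0.298 in that order. The 83 are of all ranks. At the 59 of them with a lower percentile under 25, the medians were 59.2% and 0.741. The CCAAT box stood in 27.7% (18.4 to 38.6) of KO-only windows, 28.3% (20.9 to 36.5) of WT-only windows, 48.8% (47.4 to 50.3) of those open in all 4 libraries and 35.4% of all 21263. The GC box stood in 47.0% (35.9 to 58.3), 58.0% (49.3 to 66.3), 68.4% (67.1 to 69.8) and 42.6%. In the 715 windows of like rank these shares were 36.4% (32.8 to 40.0) and 61.4% (57.7 to 65.0). Among KO-only windows under percentile 25 they were 30.5% (19.2 to 43.9) and 50.8% (37.5 to 64.1) of 59.

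The other motifs stood in fewer KO-only windows than these. Each share is given for the 83 KO-only windows, which are of all ranks, then for the 715 open windows with a lower percentile under 25. The 138 WT-only windows and all 21263 windows, most of which had no region, follow. CCGGAAG (ETS) stood in 15.7% (8.61 to 25.3), 20.3% (17.4 to 23.4), 16.7% (10.9 to 23.95) and 8.98%. The KO-only share was above that of all windows, but its interval includes 8.98%. It was not above that of the other open windows. GCGCATGCG (NRF1) stood in 7.23% (2.70 to 15.1), 4.20% (2.85 to 5.94), 10.9% (6.21 to 17.3) and 1.93%. AAGATGGC (YY1) stood in 4.82% (1.33 to 11.9), 2.52% (1.499 to 3.95), 3.62% (1.19 to 8.25) and 1.496%. TGACGTCA (CRE) stood in 6.02% (1.98 to 13.5), 3.36% (2.16 to 4.95), 2.17% (0.451 to 6.22) and 1.92%. For these 4 motifs the KO-only interval overlapped those of both other sets of open windows. CACGTG (E-box) stood in 12.0%, 9.93%, 6.52% and 6.63%, and TGANTCA (AP-1) in 8.43%, 3.78%, 5.80% and 6.13%. TATAAA stood in 7.23%, 5.87%, 4.35% and 11.6%, and TTGCNNAA (C/EBP) in 7.23%, 6.01%, 2.90% and 9.09%. GAGGAAGT, a form of the motif of PU.1, the lineage factor of macrophages, stood in 2.41%, 2.10%, 2.17% and 2.23%. The STAT6 motif stood in 2.41%, 3.92%, 2.90% and 5.39%, and the IRF motif in 2.41%, 1.82%, 2.90% and 2.96%. Both strands were searched, and the ETS and PU.1 forms share the letters GGAAG but cannot match at the same place. A match is a description of the letters in these windows.

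The median distance of KO-only regions to the nearest WT peak was 17342 bases, with quartiles of 5632 and 51551. For WT-only regions the median distance to a KO peak was 18662.5 bases. Fewer than 500 bases separated 12 KO-only regions (4.82%, 2.51 to 8.27) from a WT peak, and 4.73% (3.11 to 6.85) of WT-only regions from a KO peak. After Slc16a7 the closest were inside Frmd4b (16 bases, to a WT IL-4 peak of 118) and the region at Rbmx, an RNA-binding protein gene (66 bases). At the other end 24 regions (9.64%, 6.27 to 14.002) lay 100 kb or more away. Just outside the rule were 1577 regions with both KO peaks and a peak of 1 WT list. The smallest overlap of the WT peak there was 115 bp, at Dis3l2, and the lowest WT score 50.03, near Flrt2, while 147 had a WT score under 60.

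**Figure D5:**
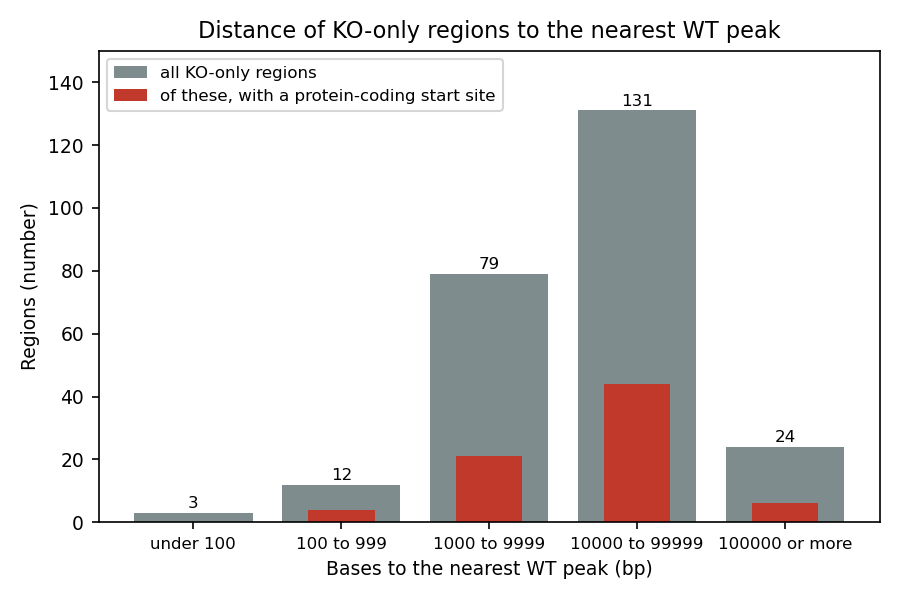
Number of KO-only regions (grey) and of those with a protein-coding start site (red) by the bases to the nearest WT peak, in 5 distance classes. The largest class, 10 kb to under 100 kb, holds 131 regions, 44 of them with a start site, and 3 regions lie under 100 bases.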

How the data were processed

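Each library has 1 peak list, with a position and a score per peak. The score was deposited by the authors without a stated unit. It runs from 50 to 3100 and was compared only within a list. The submitters' processing notes name mm10, HOMER, MACS 1.4.2 and Bowtie2 2.2.5; their settings are unknown.

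Peaks were merged at 1 bp of overlap and positions are 1-based. Gene spans and start sites came from RefSeq tables of GRCm38.p6, without entries for start sites on chromosome 18, where 3 of the 249 regions lie. Motifs were read only in promoter windows, because no genome sequence was used here. Some items are not reported here. All 260 list entries matched a gene, 1 by an older symbol. The regions, gene lists and motifs were chosen with earlier results of these data known. Named genes are those that hold, or end within 10 kb of, the 20 highest-ranked regions, those at the 30 highest-ranked edge regions, list genes with a region at the locus, and Slc6a8. Farther nearest genes (Kcnk10, Rnf138rt1, Btg1, Olfr726) and all others were named after their values were seen. No test was run, since each group had 1 library. Alternatives were loci extended by 50 kb, edges of 2.5 kb, autosomes only, lists of equal length, 50% reciprocal overlap, a score of 100 or more, and no WT peak within 500 bp. Joining touching peaks, and a score of 100 in both KO lists with no WT peak at any score, were added after the data were seen, as were the rank classes. Merging and overlap were tested on simulated data. The software was SciPy 1.17.1, pandas 2.3.3, NumPy 2.4.6 and Matplotlib 3.10.9 under Python 3.11.15.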

Additional observations from a re-analysis of the deposited data

How the results depend on the processing

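No paired analysis was possible because each group had 1 library, and the library titles give no replicate numbers. Of the 249 regions, 244 lay on autosomes, 237 had no WT peak within 500 bp and 248 remained when touching peaks were joined, and under these 3 settings the edge share was 32.9% to 33.6%, the share over 10 kb from a gene end 40.5% to 40.98% and the median distance 17418 to 18772 bases. Reciprocal overlap of 50% gave 261 regions and a median distance to WT peaks of 12632 bases. With peaks under a score of 100 left out of every list there were 44, with 47.7% at a gene edge, 29.5% over 10 kb from a gene end, a median width of 718.5 bp and a distance of 58282 bases. Of the 249 regions, 2 scored 100 or more in both KO lists (added after the data were seen), with shares of 50% and 50%, a width of 926 bp and a distance of 10947.5 bases. Most of the 44 therefore lie in merged regions that hold a WT peak in the full lists, so their values do not describe a high-scoring part of the 249. With 9930 peaks in each list there were 373 KO-only and 349 WT-only regions, so the order of the genotypes turned, with a median width of 560 bp and a distance of 25551 bases. Of those 373, 278 overlapped a WT peak that the shortened lists leave out and 95 were among the 249. The overlap of the 349 WT-only regions with left-out KO peaks is not given. Edges of 2.5 kb held 41.8%. Loci extended by 50 kb added Runx1 to macrophage identity and Tfrc and Tubb5 to housekeeping. Presence or absence of a peak near the score floor depends on depth, which is unknown here, and no library was repeated.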

Other observations

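KO-only regions lay near each other in places. With a spacing of at most 200 kb, 29 of the 249 fell into 13 groups, and most groups held a pair. No such share is given for other sets of regions, so this one cannot be called a trait of KO-only regions. On chromosome 7 a group of 175546 bp held the start sites of Sephs2, a selenophosphate synthetase gene, Zfp688 and Zfp689. The region at Sephs2 scored 80.6 and 54.5. On chromosome 2 a group held the start sites of 1110008P14Rik and Fam102a and a region near Cdk9, a kinase gene of transcription elongation, which scored 88.8 and 56.3 and lay 1835 bp from Mir3960.

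Chromosome 1 held 26 KO-only regions (10.4%, 6.94 to 14.9), against 6.84% of the regions with both KO peaks. Chromosome 10 held 23 (9.24%, 5.95 to 13.5) against 5.88%, and chromosome 8 held 20 (8.03%, 4.98 to 12.1) against 5.54%. These chromosomes had the largest excess of all. Some others also lay above the share of regions with both KO peaks, such as chromosome 16 (4.82%, 2.51 to 8.27, against 3.69%), and the rest lay below it. Among the latter were chromosome 2 (6.43%, 3.72 to 10.2, against 8.38%) and chromosome 18 (1.20%, 0.249 to 3.48, against 3.11%). Chromosome X held 5 (2.01%, 0.655 to 4.62) against 1.84%, and chromosome Y none. The start sites of Khk, ketohexokinase, and Preb lay in regions that together span 38992 bp of chromosome 5, with scores of 90.8 and 55.6 for Khk and of 65.2 and 58.1 for Preb (KO untreated, then KO IL-4). A region over the start site of Mt2, a metallothionein gene, scored 51.6 and 61.0, and one at Ptpn22, a phosphatase gene of lymphoid and myeloid signalling, 80.3 and 50.2. A region 52069 bp from Igf1, a growth factor gene that macrophages express, scored 70.3 and 97.8 and lay 10509 bases from a WT IL-4 peak of 60.7.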
